A study of Rattus norvegicus with 32 samples.

Results

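The genes described here are splicing factor and heterogeneous nuclear ribonucleoprotein (hnRNP) genes, measured in the dendrites and in the soma of single rat neurons. They were chosen by gene symbol from a list of 40: 12 SR protein genes, 12 hnRNP genes and 16 genes of the core spliceosome. Of these, 37 were among the 17216 gene rows: 12 SR protein genes, 11 hnRNP genes and 14 core genes. Hnrnpd, U2af2 and Snrpd3 were not analysed here. Both groups came from hippocampal neurons of wildtype Sprague Dawley rats, taken on embryonic day 18, grown in culture for 15 days and labelled as pyramidal neurons. The first group was the dendrites of 16 neurons and the second the soma of the same 16 neurons, each aspirated with its own micropipette, so that every neuron gave 1 library of each kind. All 32 libraries were made from polyadenylated RNA after 3 rounds of antisense RNA amplification, which copies RNA by in vitro transcription. More than 1 culture and day supplied the neurons. The sources do not assign single neurons to them, so the p-values measure the spread between these neurons.

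SR proteins are RNA-binding proteins with domains rich in arginine and serine that bind exonic enhancers and recruit the spliceosome to nearby splice sites. HnRNPs coat nascent transcripts, often act against SR proteins at the same exons, and several of them shuttle to the cytoplasm, where in neurons they are known to bind mRNAs carried into dendrites. The core spliceosome is built from small nuclear ribonucleoproteins (snRNPs) on a ring of Sm proteins, together with the factors that recognise the branch point and the 3′ splice site. Splicing itself takes place in the nucleus, in the soma, while the measurements below concern the mRNAs that encode these proteins, in each compartment.

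Promoter sequences are shown for the 2 hnRNP genes with 3 copies of CCAAT before the start site that reached 10 counts in every library, and for U2af1, the core gene with the smallest p between compartments. The sequences are the 250 bases before the annotated start in RefSeq, rat build GRCr8, in the direction of transcription. Capitals mark CCAAT or its reverse complement ATTGG. Hnrnpk and Hnrnpu, also found in every library, have 0 copies in these bases. Hnrnpc, with 5 copies, and Hnrnpr, with 3, reached 10 counts in 10 and 12 of 32 libraries. Whether the annotated starts are those used in these neurons was not tested. The Hnrnpa1 window is chr7:136253868-136254117 on the plus strand, that of Hnrnpl is chr1:93228151-93228400 on the plus strand, and that of U2af1 is chr20:9755095-9755344 on the minus strand.
Hnrnpa1: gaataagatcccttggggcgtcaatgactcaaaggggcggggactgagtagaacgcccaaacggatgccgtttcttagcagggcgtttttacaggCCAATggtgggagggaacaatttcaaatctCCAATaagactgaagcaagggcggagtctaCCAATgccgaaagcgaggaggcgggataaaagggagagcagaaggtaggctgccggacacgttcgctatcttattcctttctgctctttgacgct
Hnrnpl: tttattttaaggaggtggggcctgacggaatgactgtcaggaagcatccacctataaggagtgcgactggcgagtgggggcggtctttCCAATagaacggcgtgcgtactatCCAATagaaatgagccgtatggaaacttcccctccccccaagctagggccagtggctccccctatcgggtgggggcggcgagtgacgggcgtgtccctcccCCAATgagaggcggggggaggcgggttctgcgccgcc
U2af1: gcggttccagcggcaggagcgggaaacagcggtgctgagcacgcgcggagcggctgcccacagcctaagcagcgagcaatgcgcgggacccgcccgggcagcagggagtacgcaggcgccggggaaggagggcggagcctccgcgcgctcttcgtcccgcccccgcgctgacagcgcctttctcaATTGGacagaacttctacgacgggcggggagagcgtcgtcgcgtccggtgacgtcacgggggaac

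RefSeq held a promoter window for 35 of the 37 genes. The 6 patterns below were searched on both strands in windows that add 50 bases after the start, 300 bases in all: CCAAT (the CCAAT box), GGGCGG (the GC box), CCGGAAG (an ETS pattern), TATAAA, TGACGTCA (the CRE) and the NRF1 pattern. Each was searched on its own, so matches of different patterns may overlap. CCAAT was present in 10 of 11 hnRNP promoters (90.9%), 4 of 11 SR protein promoters (36.4%) and 5 of 13 core promoters (38.5%). Among promoters of all protein-coding genes the share was 38.0% of 21842, and among all 33469 promoters it was 37.5%. In the 250 upstream bases alone CCAAT stood in 8 of 11 hnRNP promoters (72.7%), against 35.0% of those of protein-coding genes. GGGCGG was found in 24 of 35 promoters of the splicing genes (68.6%), against 41.8% of those of protein-coding genes, and CCGGAAG in 10 of 35 (28.6%), against 10.7%. The NRF1 pattern stood in 8 of 35 (22.9%), against 5.66%, TATAAA in 3 of 35 (8.57%), against 2843 of 21842 of those of protein-coding genes, and TGACGTCA in 1 of 35 (2.86%), against 2.1%. The promoters of the splicing genes were also richer in GC, with a median of 61.3% against 55.0%. A pattern match describes these letters and is no evidence of a bound factor.

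Dendrite libraries held between 229149 and 24439768 gene counts and soma libraries between 878125 and 24721811, and the dendrite library was the shallower one in 14 of 16 neurons. Levels below are CPM, the counts of a gene per 1000000 gene counts of its library, which do not correct for gene length. They compare a gene between libraries and not one gene with another. Neurod6, a pyramidal neuron transcription factor, reached 10 counts in all 16 dendrite and all 16 soma libraries, while Slc17a7 did so in 2 dendrite and 5 soma libraries and Camk2a in 4 and 5. Summed astrocyte markers (12 genes with rows) lay between 40.3 and 2610.1 CPM in dendrites and between 0.648 and 663 CPM in soma and were higher in the dendrites of 11 of 16 neurons, with Aldh1l1 at 0 counts in 14 dendrite and 15 soma libraries and Slc1a2 at 0 in 15 and 16. Summed endothelial, mural and fibroblast markers were higher in the dendrites of 13 of 16 neurons, and microglia markers were at 0 in 8 dendrite and 15 soma libraries. Inhibitory neuron markers reached 3141 CPM in the dendrites of neuron 7 and 13314 CPM in the soma of neuron 8. The part of these other cell types in the values of the splicing genes was not tested. The dendrites of neuron 20 held the fewest genes at 10 or more counts of the dendrite libraries, 2479. Both libraries of neuron 25 were shallow. Libraries of neurons 7, 8 and 9 were taken to resemble each other across their numbers, and no value for this is given here. Results are therefore also given without these neurons where that moves them.

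Messenger RNAs for most of the splicing factors were found in both compartments, and the number found per library differed between them by less than its spread. A dendrite library held 26.9 ± 5.81 of the 37 genes at 10 or more counts and a soma library 28.1 ± 4.50 (SD, n = 16 each). The lowest dendrite library was that of neuron 20 with 18 genes and the highest that of neuron 11 with 35, and among soma libraries the lowest was neuron 28 with 18 and the highest neuron 13 with 35. The number was higher in the dendrites of 7 neurons and in the soma of 9. As a share of genes with rows, 72.6% of the splicing genes reached 10 counts in an average dendrite library and 76.0% in an average soma library, against 25.5% and 26.6% of all genes. When 15 neurons were thinned to the same 1071293 gene counts per library, the means were 23.3 genes in dendrites and 24.0 in soma, and the paired difference of -0.667 was smaller than its SD of 7.64.

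**Figure D1:**
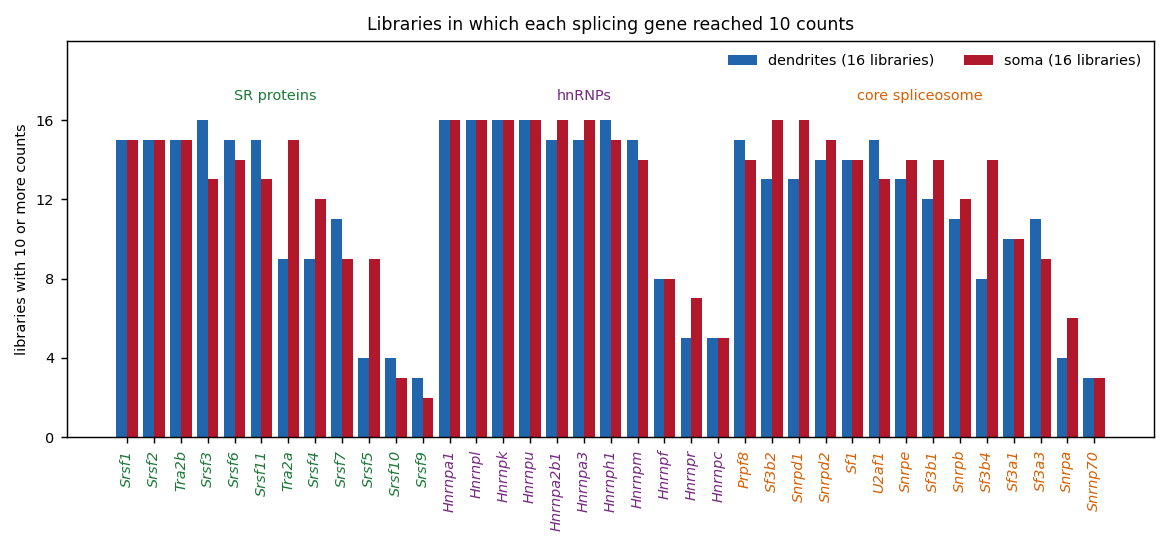
Bars give, for each splicing gene, the number of dendrite libraries (left bar, blue) and soma libraries (right bar, red) with 10 or more counts, out of 16 each. Hnrnpa1, Hnrnpk, Hnrnpl and Hnrnpu reach 16 in both, while Tra2a stands at 9 dendrite and 15 soma libraries and Sf3b4 at 8 and 14.

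The classes differed in how widely they were detected. The 4 genes that reached 10 counts in all 32 libraries were hnRNP genes: Hnrnpa1, Hnrnpk, Hnrnpl and Hnrnpu. These were 10.8% of the 37 genes, against 3.19% of all genes. At 10 counts in at least 28 of 32 libraries stood 8 of 11 hnRNP genes, 6 of 12 SR protein genes and 6 of 14 core genes. Among all genes 8.93% reached 10 counts in at least 28 libraries. At the other end, 8 of the 37 genes reached 10 counts in 16 or fewer libraries, as did 13151 of all 17216 genes. Srsf9 did so in 3 dendrite and 2 soma libraries, Snrnp70 in 3 and 3, Srsf10 in 4 and 3, Hnrnpc in 5 and 5, Snrpa in 4 and 6, and Hnrnpr in 5 and 7. Snrnp70 encodes the U1 snRNP protein U1-70K, Snrpa the U1 protein A, and Hnrnpc a nuclear hnRNP that binds uridine tracts. Hnrnpf and Srsf5 completed this group.

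Detection also differed between the compartments of a neuron for some genes, and the share of all genes with such a split was not counted. Tra2a, which encodes a relative of SR proteins that binds purine-rich enhancers, reached 10 counts in the soma alone in 7 neurons and in the dendrites alone in 1. After thinning to equal depth, over 15 neurons, these numbers were 6 in soma alone and 1 in dendrites alone. U2af1 went the other way after thinning, with 6 neurons in dendrites alone and 0 in soma alone. At full depth it had 2 in dendrites alone and 0 in soma alone. Sf3b4, a subunit of the U2 snRNP complex SF3B, was found in soma alone in 6 neurons at full depth and in 4 after thinning. It was found in dendrites alone in 0 and 1. Srsf5 had 6 neurons in soma alone and 1 in dendrites alone at full depth, and 4 and 1 after thinning. For Sf3b2 these were 3 and 0, then 5 and 1. For Srsf7 they were 1 and 3, then 1 and 6. At full depth, with dendrites the shallower library in most neurons, 6 of 12 SR protein genes were found in more dendrite libraries and 3 in more soma libraries, and of the 14 core genes 3 were found in more dendrite and 8 in more soma libraries. Over all genes these shares were 22.8% and 27.5%. After thinning, the SR protein genes turned to 2 in more dendrite and 5 in more soma libraries, and the core genes stood at 6 and 7, against 23.4% and 20.8% of all genes. The direction of these gene tallies for SR proteins thus differed between full depth and thinning, which covered 15 neurons. Counted per library at full depth, more SR protein genes reached 10 counts in the soma of 10 neurons and in the dendrites of 6. After thinning these were 10 and 4, with 1 neuron equal.

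**Figure D2:**
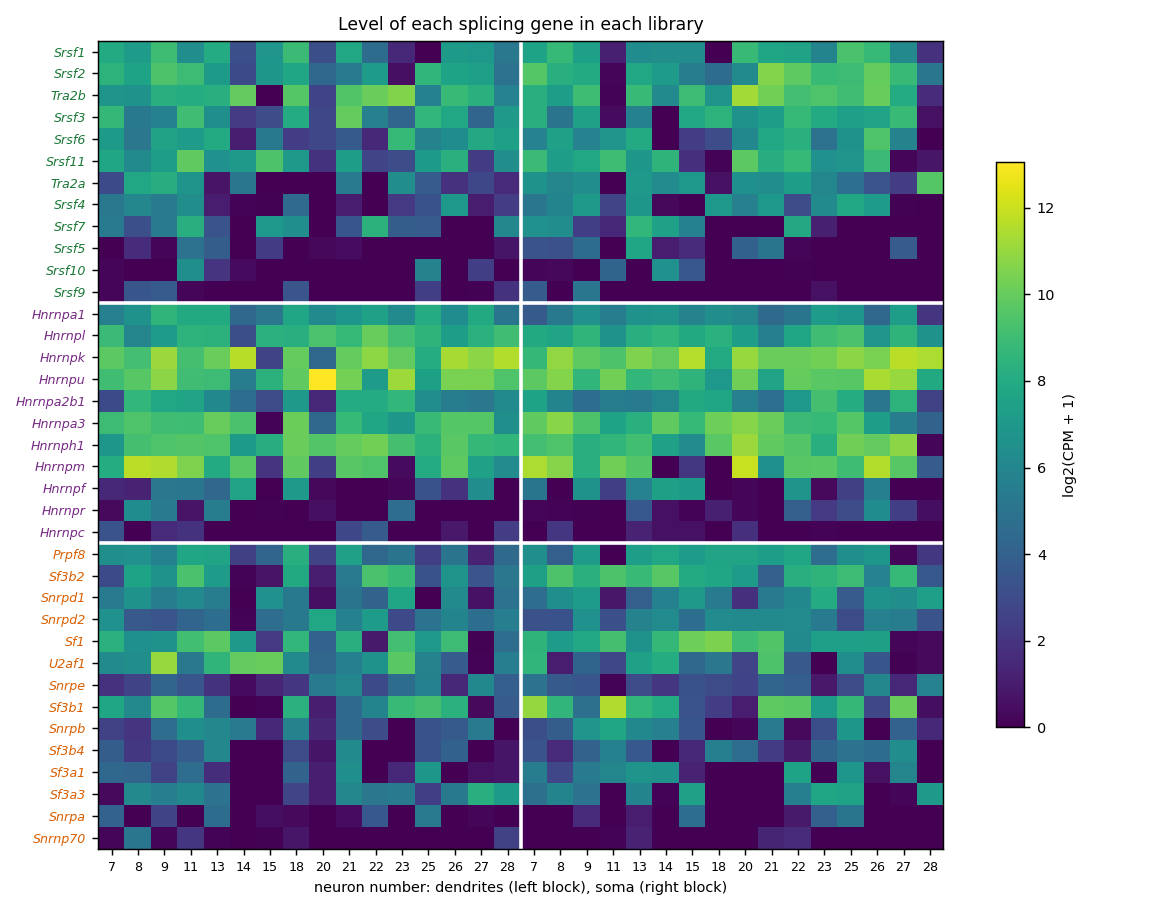
Each cell is the level of a gene in a library, as log2(CPM + 1), with dendrites of the 16 neurons in the left block and soma of the same neurons in the right block, and rows grouped as SR proteins, hnRNPs and core spliceosome. Rows such as Hnrnpk and Hnrnpu are bright in nearly all libraries, while rows such as Sf3b1 and Tra2b pass from bright to dark between neurons within either block.

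Dendrites were compared with soma in edgeR with the neuron as a block, over 4916 genes that passed a filter on low counts. Of the splicing genes 30 passed it: 9 SR protein genes, 9 hnRNP genes and 12 core genes. Srsf5, Srsf9, Srsf10, Hnrnpc, Hnrnpr, Snrnp70 and Snrpa did not. At a Benjamini-Hochberg adjusted p under 0.05, edgeR called 0 of these 30 genes and 0% of all genes tested. At an unadjusted p under 0.05 it called 1 of 30, U2af1, against 2.62% of all genes (1.75% higher and 0.875% lower in dendrites). DESeq2 with the same block called 403 of 4916 genes (8.2%; 5.55% higher and 2.64% lower in dendrites) and 3 of the 30: U2af1 and Hnrnpa1 higher and Tra2a lower in dendrites. limma-voom and a sign-flip permutation test per gene called 0 of 4916 genes at an adjusted p under 0.05, and 4.6% and 5.37% at an unadjusted p under 0.05, which took in 3 of the 30 genes each. The edgeR adjusted p was 0.999 for 29 of the 30 genes and 1.00 for Hnrnpf, and is not repeated below. The ranges of CPM in dendrites and soma overlapped for all 37 genes, as they did for all 4916 genes tested.

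The direction of the estimates leaned toward soma, by less than the spread between neurons. Fold changes are given on the log2 scale, with dendrites over soma. Their median over the 30 genes was -0.21, against 0.13 over all genes tested, and 7 of 30 were above 0 (23.3%), against 54.8% of all genes. In limma-voom 13 of 30 were above 0 (43.3%), against 59.5% of all genes. By class the medians were -0.24 for SR proteins (2 of 9 above 0), -0.01 for hnRNPs (3 of 9 above 0) and -0.68 for core genes (2 of 12 above 0). In limma-voom 4 of 9 SR protein genes, 6 of 9 hnRNP genes and 3 of 12 core genes were above 0. Without the neuron block these counts were 0, 4 and 4, and 46.9% of all genes were above 0. Scaling by spike-in totals instead of TMM moved the median of all genes to -0.05, and relative to the median of all genes the splicing genes then stood at -0.26, against -0.34 under TMM. Over the 11 alternatives the median relative to all genes ran from -0.998 to -0.58 for core genes, from -0.54 to -0.12 for SR proteins and from -0.34 to 0.17 for hnRNPs. The hnRNP median was thus on both sides of that of all genes. Without neuron 20 the SR protein median was 0.13, the same as that of all genes.

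**Figure D3:**
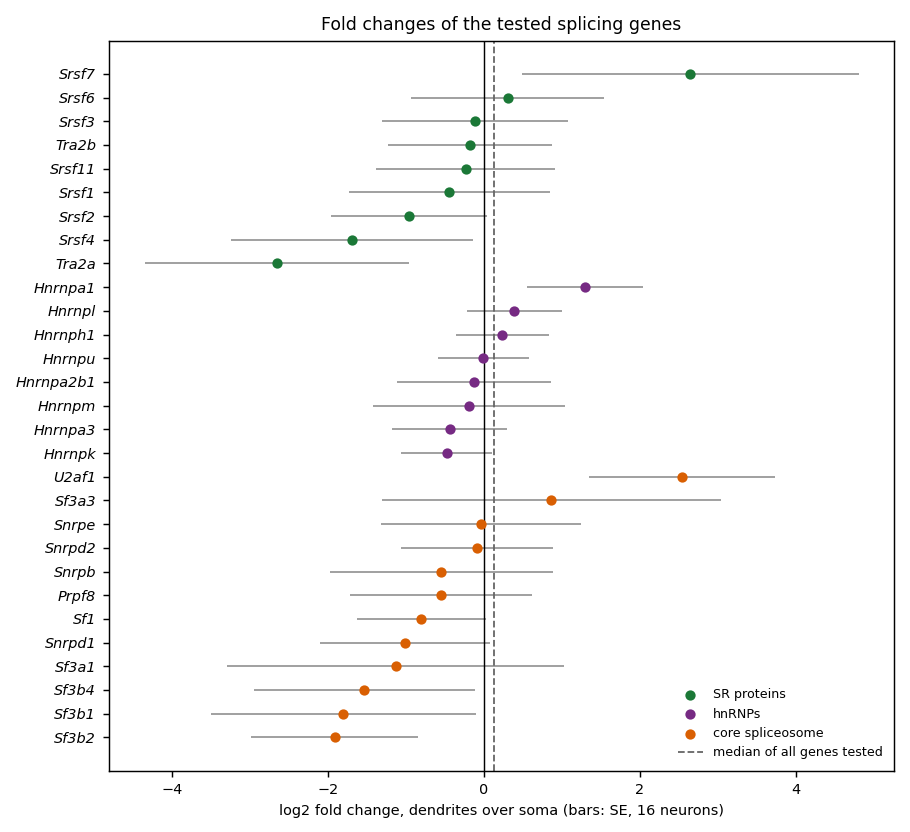
Points are log2 fold changes of dendrites over soma from edgeR for the tested splicing genes, with bars of 1 SE over 16 neurons, and the dashed line is the median of all genes tested (0.13). Hnrnpf, tested with an SE of 9.18, is left off; U2af1, Srsf7 and Hnrnpa1 lie farthest to the right and Tra2a, Sf3b2 and Sf3b1 farthest to the left.

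Among SR proteins, Tra2a had the smallest p. It had a lowest, median and highest level of 0, 6.39 and 276 CPM in dendrites, against 0, 80.6 and 793 CPM in soma. Its level was at 0 in 4 dendrite libraries and 1 soma library. The log2 fold change was -2.66 ± 1.69 (SE, edgeR unadjusted p = 0.128), lower in the dendrites of 11 of 16 neurons. DESeq2 called it lower in dendrites (log2 fold change -2.70, adjusted p = 0.0381), while over the other alternatives its adjusted p was between 0.865 and 1. The medians lay apart while the ranges of the compartments overlapped.

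Its paralog Tra2b is known to promote the inclusion of exons in neurons. Its level was 0, 294 and 1516 CPM in dendrites (lowest, median, highest), against 0.0748, 474 and 2417 CPM in soma. The log2 fold change was -0.18 ± 1.05 (SE) and its sign turned in 3 of 11 alternatives, which were limma-voom (0.29), without neurons 20 and 25 (0.49) and without neurons 7, 8 and 9 (0.15). Tra2a and Tra2b thus differed in estimate, and the difference between them was not tested.

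Srsf7, a shuttling SR protein with a zinc knuckle that also takes part in mRNA export, had 0, 13.3 and 341 CPM in dendrites, against 0, 1.47 and 397 CPM in soma. Its log2 fold change was 2.64 ± 2.16 (SE) and higher in the dendrites of 9 of 16 neurons. Without the neuron block the fold change was -0.023, so the positive estimate holds in the paired fit alone. After thinning it reached 10 counts in dendrites alone in 6 of 15 neurons and in soma alone in 1.

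Srsf4 had 0, 3.81 and 122 CPM in dendrites, against 0, 54.2 and 227 CPM in soma, with a log2 fold change of -1.69 ± 1.56 (SE). Srsf2, a nuclear SR protein that is retained in the nucleus, had 0.428, 153 and 688 CPM in dendrites, against 0.150, 270.5 and 1593 CPM in soma. Its fold change was -0.96 ± 0.99 and was negative under all 11 alternatives, between -1.33 and -0.65, with 5 of 16 neurons higher in dendrites. Both genes overlapped across the compartments over most of their range.

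The estimates of the remaining SR protein genes were each smaller than their SE. Srsf1, also called SF2/ASF, had 0, 118 and 508 CPM in dendrites, against 0, 126 and 623 CPM in soma, with a log2 fold change of -0.45 ± 1.29 (SE). Srsf3, a small shuttling SR protein, had 3.73, 70.2 and 994 CPM in dendrites, against 0, 171 and 448 CPM in soma, and reached 10 counts in 16 dendrite and 13 soma libraries. The estimate was -0.12 ± 1.20, and RefSeq names 10 pseudogenes after it. Srsf11 had 2.79, 132 and 940.1 CPM in dendrites, against 0.09999, 191 and 886 CPM in soma, and its fold change of -0.24 ± 1.15 turned sign in 3 of 11 alternatives. Srsf6, the remaining tested gene of the class, had a fold change of 0.31 ± 1.24. Srsf5 had 0 counts in 8 dendrite and 6 soma libraries, and Srsf9 and Srsf10 in at least 8 of 16 libraries of each compartment, so these genes have no fold change.

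**Figure D4:**
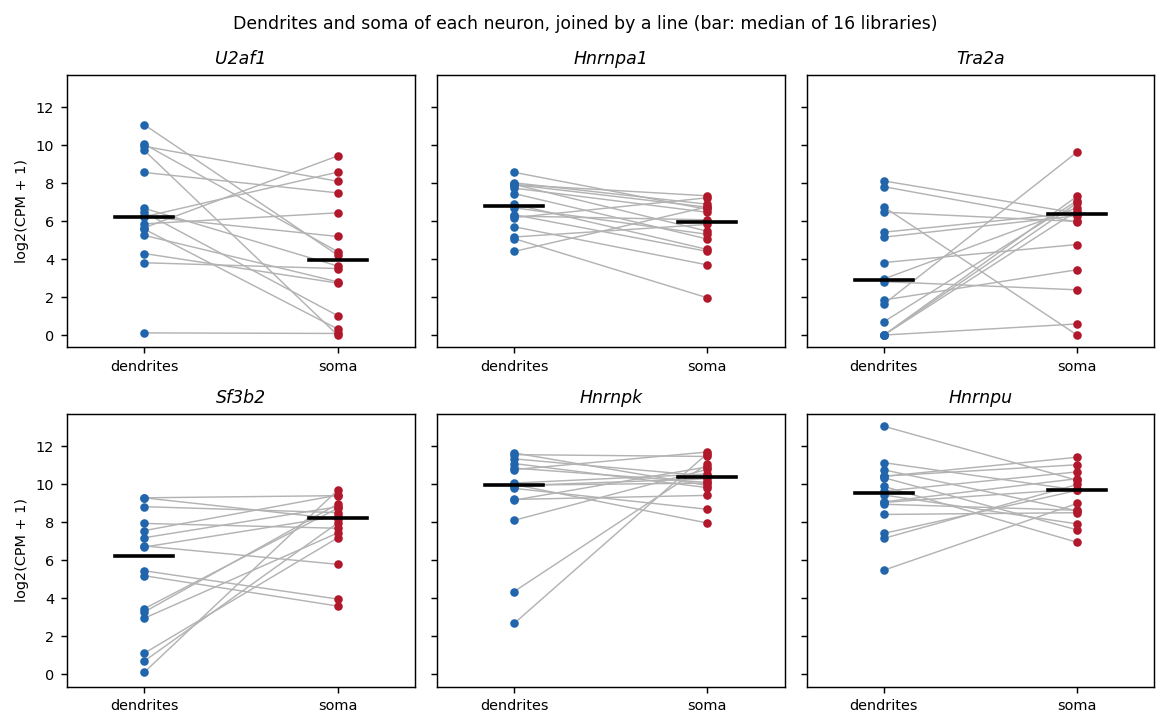
Each panel joins the dendrites (left, blue) and the soma (right, red) of a neuron by a line, on a log2(CPM + 1) axis, with a bar at the median of 16 libraries. U2af1 and Hnrnpa1 are each higher in the dendrites of 13 of 16 neurons, Tra2a and Sf3b2 in 5 and 6, and the lines of Hnrnpk and Hnrnpu cross in both directions.

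Among hnRNPs, Hnrnpa1 had the smallest p. The gene encodes the archetypal shuttling hnRNP, a splicing silencer. Its level was 20.1, 110.3 and 378 CPM in dendrites (lowest, median, highest), against 2.90, 60.8 and 159.8 CPM in soma. The dendrites of neuron 9 were highest and those of neuron 14 lowest, and 13 of 16 neurons were higher in dendrites. The log2 fold change was 1.29 ± 0.74 (SE, edgeR unadjusted p = 0.0941). It stayed between 1.15 and 1.47 when each neuron was left out and between 1.11 and 1.36 over 11 alternatives. DESeq2 called it higher in dendrites (adjusted p = 0.0240), and over the other alternatives the adjusted p was between 0.728 and 1. RefSeq names 51 pseudogenes after Hnrnpa1, more than after any other of the 37 genes, and 0 of them have a row, and the gene overlaps Cbx5, which has one. The sources do not state how strand or reads with several matches were handled, so the counts of Hnrnpa1 are uncertain to that extent.

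Estimates for its close relatives were below 0, and the difference from Hnrnpa1 was not tested. Hnrnpa2b1, whose protein binds a trafficking element in dendritic mRNAs, had 1.86, 78.1 and 407 CPM in dendrites, against 4.92, 61.6 and 599 CPM in soma. Its log2 fold change was -0.13 ± 0.99 (SE), with 8 of 16 neurons higher in each compartment. Hnrnpa3 had 0.104, 503 and 1129 CPM in dendrites, against 16.9, 575 and 1704 CPM in soma, with a fold change of -0.44 ± 0.74. The dendrites of neuron 15 were the lowest library for Hnrnpa3.

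Hnrnpk encodes a protein with KH domains that binds cytidine-rich RNA. Its level was 5.40, 1005 and 3224 CPM in dendrites, against 249, 1323 and 3333 CPM in soma. The dendrites of neurons 15 and 20 held 5.40 and 19.5 CPM, below every soma library. The log2 fold change was -0.48 ± 0.58 (SE), and without neurons 20 and 25 it was 0.0028. RefSeq names 7 pseudogenes after Hnrnpk.

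Hnrnpl, which binds CA repeats, had 7.95, 341 and 1046 CPM in dendrites, against 49.2, 243 and 629.8 CPM in soma. Its fold change was 0.39 ± 0.61 (SE), positive under all 11 alternatives, with 10 of 16 neurons higher in dendrites. Hnrnpu, the scaffold attachment factor that binds chromatin and RNA, had 43.7, 746 and 8536 CPM in dendrites, against 123, 825 and 2751 CPM in soma. The highest value, 8536 CPM, came from the dendrites of neuron 20, and the next highest dendrite library held 2259 CPM. With the neuron block the fold change of Hnrnpu was -0.013 ± 0.58, and without it 2.05 (edgeR adjusted p = 0.368).

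Hnrnpm had 0.285, 486 and 3305 CPM in dendrites, against 0, 789 and 4046 CPM in soma, and varied between neurons more than it did between compartments. Its fold change of -0.19 ± 1.24 (SE) changed sign in 4 of 11 alternatives. Hnrnph1 was 0.23 ± 0.59, with 121 CPM in its lowest dendrite library and 0.126 CPM in its lowest soma library. Hnrnpf, at 0 counts in 4 dendrite and 5 soma libraries, had a fold change of -0.0099 with an SE of 9.18, from which no direction can be read. Hnrnpc was between 0 and 13.1 CPM in dendrites and between 0 and 3.18 CPM in soma, and Hnrnpr reached 80.1 CPM in dendrites and 80.4 CPM in soma.

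In the core spliceosome, U2af1 had the smallest p of all 30 genes. It encodes the small subunit of the U2 auxiliary factor, which reads the AG at the 3′ splice site. Its level was 0.0818, 74.3 and 2149 CPM in dendrites (lowest, median, highest), against 0, 14.5 and 687 CPM in soma. The 5 highest dendrite libraries, from neurons 13, 23, 14, 15 and 9, held between 376 and 2149 CPM, and the 2 highest soma libraries, from neurons 7 and 21, held 380.3 and 687 CPM. The log2 fold change was 2.54 ± 1.19 (SE, edgeR unadjusted p = 0.0431) and was positive in 12 of 16 neurons after TMM scaling. Leaving out each neuron gave values between 2.12 and 2.98, and the 11 alternatives gave values between 1.91 and 2.76. DESeq2 called it higher in dendrites (adjusted p = 0.00789), and the adjusted p over the other alternatives was between 0.801 and 1. Its partner in the heterodimer, U2af2, was not analysed here.

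Sf1 and the SF3B genes of the core class pointed the other way. Sf1, which binds the branch point before the U2 snRNP does, had 0.0409, 126 and 860 CPM in dendrites, against 0.120, 201 and 1412 CPM in soma, with a log2 fold change of -0.80 ± 0.83 (SE) and 4 of 16 neurons higher in dendrites. Sf3b2 had 0.0811, 72.9 and 626 CPM in dendrites, against 11.1, 303 and 823 CPM in soma. Its fold change was -1.91 ± 1.07 (SE, edgeR unadjusted p = 0.0853), with 6 of 16 neurons higher in dendrites. Every soma library held at least 11.1 CPM of Sf3b2, while the dendrites of neurons 14, 15, 20, 7, 25 and 27 held less. Sf3b2 overlaps Gal3st3, which also has a row.

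Sf3b1, the large SF3B subunit that holds the branch point helix, had 0, 63.6 and 780.4 CPM in dendrites, against 0.378, 322 and 2867 CPM in soma. This gave an estimate of -1.81 ± 1.70 (SE). Sf3b4 had 0, 5.07 and 73.2 CPM in dendrites, against 0, 14.1 and 82.4 CPM in soma, with a fold change of -1.54 ± 1.42 and 5 of 16 neurons higher in dendrites. Each of the 3 SF3B genes of the core class had a negative estimate under every alternative that gave one, and DESeq2 called 0 of them. The wider list given below holds further SF3B genes. Of these, Sf3b3 was at -0.89 ± 2.41, Sf3b6 at -0.78 ± 1.73 and Sf3b5 at 1.13 ± 1.87. The SF3A genes of the core class had estimates of opposite sign: -1.13 ± 2.16 for Sf3a1 and 0.86 ± 2.17 for Sf3a3. Sf3a2 of the wider list was at 1.21 ± 1.60.

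Prpf8, the protein at the catalytic centre of the U5 snRNP, had 1.39, 31.996 and 299.7 CPM in dendrites, against 0, 133 and 216 CPM in soma. The paired log2 fold change was -0.55 ± 1.17 (SE), and 8 of 16 neurons were higher in dendrites by CPM. Of the Sm ring genes of the core class, Snrpd1 had a fold change of -1.02 ± 1.09 and Snrpb of -0.55 ± 1.43. Snrpd2 stood at -0.090 ± 0.97 and Snrpe at -0.039 ± 1.29, and without the neuron block at 1.32 and 1.00. At full depth each of these 4 was found at 10 counts in more soma than dendrite libraries. After thinning 3 of them were, while Snrpb was found in 9 dendrite and 8 soma libraries. The Sm genes Snrpf and Snrpg, of the wider list given below, were at -0.15 ± 1.79 and 0.75 ± 1.06. Snrpd1 had 0, 39.5 and 213 CPM in dendrites, against 0.823, 59.3 and 259 CPM in soma, and 3 of 16 neurons were higher in dendrites on the log2 scale. The U1 genes Snrnp70 and Snrpa were at 0 in 8 and 7 dendrite libraries and in 12 and 10 soma libraries.

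Summed over a class, levels varied more between neurons than between compartments. The 37 genes together made up 8040.5 ± 2706 CPM in dendrites and 9325 ± 3141 CPM in soma (SD, n = 16 each), higher in the dendrites of 6 of 16 neurons. With TMM effective library sizes the mean difference changed sign, to 1311 CPM (SD 12632 between neurons) from -1284 CPM (SD 4107). Dendrites were again higher in 6 of 16 neurons. On the TMM scale the log2 CPM of Hnrnpu was 15.8 in the dendrites of neuron 20. In the next highest dendrite library, that of neuron 23, it was 11.3. The part of neuron 20 in the change of sign was not tested. SR protein genes summed to 1451 ± 747 CPM in dendrites and 2022 ± 1220 CPM in soma, and core genes to 1307 ± 831 CPM and 1840.1 ± 1003 CPM. For hnRNP genes the sums were 5282 ± 2252 CPM in dendrites and 5463 ± 2523 CPM in soma. Dendrites were higher in 6 neurons for SR proteins, in 9 for hnRNPs and in 4 for core genes.

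**Figure D5:**
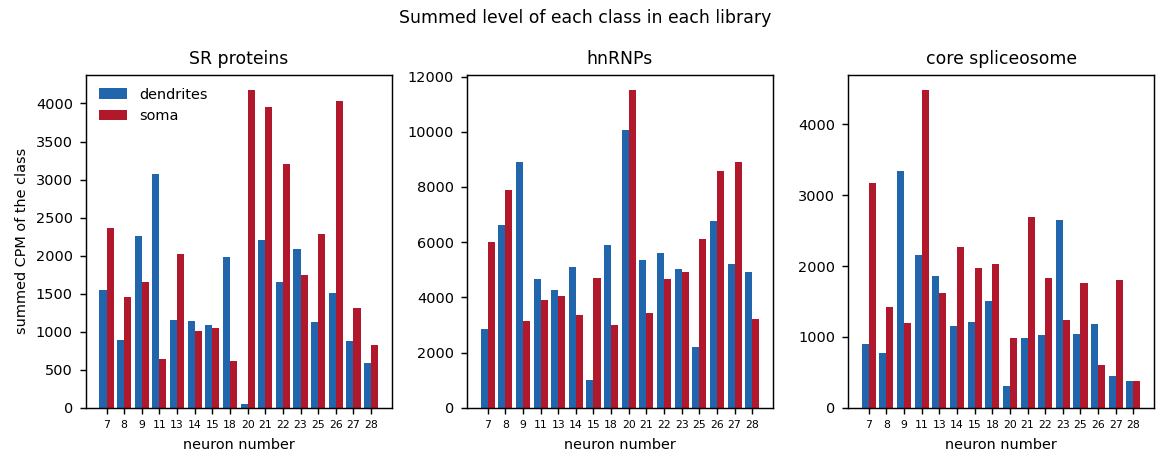
Bars give the summed CPM of the genes of a class in the dendrites (left bar, blue) and the soma (right bar, red) of each neuron, with a separate axis per class that starts at 0. The SR protein sum of neuron 20 is 47.8 CPM in dendrites and 4172 CPM in soma, that of neuron 11 is 3075 and 646 CPM, and core genes are higher in soma in 12 of 16 neurons.

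In single neurons the sums of the classes did not always lie on the same side, and 1 gene could carry a sum. In neuron 20 the SR protein genes summed to 47.8 CPM in dendrites and 4172 CPM in soma, while its hnRNP genes summed to 10063 CPM in dendrites and 11497 CPM in soma. Hnrnpu alone gave 8536 CPM of that dendrite sum and 1188 CPM of the soma sum, and without it the hnRNP sums were 1527 CPM in dendrites and 10310 CPM in soma. In neuron 11 the SR protein genes summed to 3075 CPM in dendrites and 646 CPM in soma, while its core genes summed to 2149 CPM and 4476 CPM. In neuron 15 the hnRNP genes summed to 999.7 CPM in dendrites and 4702 CPM in soma, at nearly equal SR protein sums of 1085 CPM and 1043 CPM. The dendrites of neuron 14 held 4 of 14 core genes at 10 counts, with 12332484 gene counts in the library, and Hnrnpk at its dendrite maximum of 3224 CPM. The dendrite libraries of neurons 11, 15 and 20 held 21226819, 19263865 and 4305333 gene counts. These libraries also differed over all genes. In the dendrites of neurons 14, 15 and 20, 17.5%, 20.7% and 14.4% of all genes reached 10 counts. The average dendrite library had 25.5%. In neuron 11 the share of all genes was 34.6% in dendrites and 19.6% in soma.

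As a mean over the tested genes of the log2 difference, dendrites minus soma, the splicing genes stood at -0.27 ± 1.72 (SD, 16 neurons), from -2.66 in neuron 15 to 2.94 in neuron 11, and above 0 in 5 of 16 neurons. The same mean over all genes tested stood at 0.12 ± 1.24 and was above 0 in 8 of 16 neurons. It ran from -2.47 in neuron 14 to 2.25, also in neuron 11. SR proteins spread most, at -0.39 ± 2.79, from -4.20 in neuron 20 to 6.26 in neuron 11. HnRNPs stood at 0.05 ± 1.64 and core genes at -0.41 ± 1.92, each above 0 in 9 of 16 neurons. The core mean was above 0 in 9 neurons although the core sum was higher in the dendrites of 4. The sum weighs abundant genes most, and the mean of log2 differences weighs all genes alike.

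The spread between neurons was close to that of all genes, and it was smaller for hnRNPs than for the other classes. The median SD of log2 CPM over the 30 genes was 2.97 in dendrites and 3.32 in soma, against 3.22 and 3.46 over all genes tested. For hnRNPs it was 2.26 in dendrites and 1.80 in soma, for SR proteins 3.07 and 3.59, and for core genes 3.16 and 3.34. HnRNP genes were also the most widely detected class, and spreads at equal detection were not compared. The SD was smaller in dendrites than in soma for 8 of 9 SR protein genes, and was not higher in dendrites for 61.5% of all genes tested. Among these SR protein genes was Srsf3 with 2.10 in dendrites and 3.75 in soma. Hnrnpl was the reverse, with 1.89 in dendrites and 0.87 in soma.

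Levels in the dendrites and the soma of a neuron had a weak rank relation. Spearman's rho between both compartments over 16 neurons had a median of 0.08 over the 30 genes and 0.08 over all genes tested, and ran from -0.44 for Tra2a to 0.52 for Hnrnph1. Between pairs of splicing genes within a compartment the median rho was 0.15 in dendrites and 0.06 in soma over 435 pairs, against 0.06 and 0.04 over all pairs of tested genes. In dendrites the highest was 0.81, for Hnrnpa2b1 and Sf3b2, and in soma 0.81, for Hnrnpm and Hnrnpu. These correlations are descriptions over 16 libraries that share depth differences and scaling.

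A wider list of 90 other splicing genes was set beside these, of which 82 had rows and 61 were tested. Of the 61 fold changes 29 were above 0 (47.5%) and 32 below, against 54.8% of all genes above 0. edgeR called 0 of 61 at an adjusted p under 0.05, as it called 0% of all genes tested. At an unadjusted p under 0.05 it called 2 lower in dendrites and 0 higher, against 0.875% and 1.75% of all genes tested. Dhx15, the helicase that takes spent spliceosomes apart, had 0, 25.5 and 578 CPM in dendrites, against 0, 261 and 689 CPM in soma, with a log2 fold change of -3.50 ± 1.44 (SE, edgeR unadjusted p = 0.0224) and 3 of 16 neurons higher in dendrites. Ddx39b, the helicase UAP56 of spliceosome assembly and mRNA export, had 0, 6.85 and 122 CPM in dendrites, against 1.36, 32.6 and 178 CPM in soma. The estimate was -2.59 ± 1.12 (SE, edgeR unadjusted p = 0.0292), with 2 of 16 neurons higher in dendrites. DESeq2 called 6 of the 61 lower in dendrites, Dhx15, Ddx39b, Rbm17, Ddx46, Cdc5l and Slu7, and 0 higher. Over all genes tested it called 2.64% lower and 5.55% higher.

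By group, 21 of 40 further spliceosome genes, 6 of 9 hnRNP-like genes, 1 of 6 neuronal splicing regulators, 0 of 2 SR kinases and 1 of 4 exon junction genes had a fold change above 0. Among hnRNP-like genes, Tardbp, which encodes TDP-43, had 4.10, 424 and 3812 CPM in dendrites, against 0, 287 and 1350.1 CPM in soma. The log2 fold change of Tardbp was 0.47 ± 1.46 (SE). Taf15 stood at 1.94 ± 1.55 and Ewsr1 at -1.53 ± 1.38, with 10 counts in 12 and 14 of 32 libraries.

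Among neuronal regulators, Celf4 reached 10 counts in all 32 libraries, with 58.5, 2536 and 4837 CPM in dendrites, against 793, 2628 and 5748 CPM in soma, and a fold change of -0.14 ± 0.38. Rbfox1, a regulator of neuronal exons, had 0, 249 and 1394 CPM in dendrites, against 0.283, 648 and 1484 CPM in soma. Its fold change was -1.29 ± 0.86 (SE) and negative under all 11 alternatives, and that of Mbnl2 was -0.74 ± 1.10.

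Srpk2, a kinase of SR proteins, was at -0.26 ± 1.00 and Clk1, another, at -0.66 ± 3.82. In the exon junction complex, which marks spliced mRNAs until translation, Rbm8a was at -1.13 ± 1.27, Magoh at -1.96 ± 2.005 and Rnps1 at 0.069 ± 0.81. Luc7l3 and Snrpa1 of the spliceosome group were at 0.41 ± 1.23 and -1.77 ± 1.96. None of these passed edgeR or DESeq2 at an adjusted p under 0.05.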

How the data were processed

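Polyadenylated RNA was measured in the dendrites and the soma of 16 single rat neurons. The authors deposited whole-number read counts per gene for each of the 32 libraries, for rn6, the genome build per the submitters' processing notes. How strand and multiply matching reads were counted, and with which aligner and annotation, is not given in the sources used here. Promoters came from RefSeq, build GRCr8. Spike-ins, 92 in number, were removed before scaling and testing. Depth, given in the report, limits the low values of shallow libraries, and amplified reads are not independent molecules.

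Dendrites were tested against soma in R 4.3.3 with edgeR 4.0.16: filterByExpr by compartment, TMM, glmQLFit (robust) and glmQLFTest, with Benjamini-Hochberg adjustment over 4916 genes and a threshold of 0.05. SEs were obtained by dividing the absolute log2 estimate by the root of F. Levels are CPM of gene counts, and log2 CPM used a prior count of 2. The neuron was a block, because the series text says that each cell gave both samples. As a check of this pairing, deviations from the compartment means were correlated: Spearman's rho averaged 0.0678 for dendrites and soma of 1 neuron and -0.00054 for those of different neurons, and it passed 0.1 in 4 of 16 neurons. Of the 16 soma libraries, 7 had their highest rho with the dendrites of their own neuron. No libraries of a compartment agreed within sampling noise (smallest chi-square per degree of freedom 67.0 in dendrites and 280.4 in soma).

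Alternatives were library totals or DESeq2 size factors for scaling, a fit with no replicate block, a stricter filter (10 counts in 28 libraries) or none, DESeq2 1.42.0, limma-voom 3.58.1, an exact two-sided sign-flip permutation test per gene, each neuron left out, neurons 20 and 25 or 7, 8 and 9 left out, and, chosen after seeing the data, spike-in totals and detection and sums without those neurons. The members and lists were chosen with earlier results of these data known. Genes named in full were, per class, the 4 with the smallest p, the 3 with the highest mean CPM, the 2 in the fewest libraries and 13 fixed genes, and in each further list the 2 with the smallest p and the 2 with the highest mean CPM. Genes of the 3 classes that the rule does not name were added after their values were seen. So were Rbm17, Ddx46, Cdc5l, Slu7, Sf3a2, Sf3b3, Sf3b5, Sf3b6, Snrpf and Snrpg of the wider list. A gene that the rule names in a further list is not reported here.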

Additional observations from a re-analysis of the deposited data

How the results depend on the processing

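The count of all genes called in edgeR was 0, and it was 1 without a filter and 403 in DESeq2. For the splicing genes the count was 0, and 3 in DESeq2. Both counts were 0 in every other alternative and with each neuron left out. In the fit with no replicate block, thus without the pairing by neuron, 0 genes were called, and the log2 fold change was -0.023 for Srsf7, 2.05 for Hnrnpu, -1.30 for Taf15 and -0.15 for Rnps1, each on the other side of 0 from the paired fit. Signs also turned in limma-voom for Tra2b (0.29), Hnrnpu (0.43), Hnrnpm (0.040), Srsf1 (0.28), Celf4 (0.38) and Clk1 (0.034). In the sign-flip test they turned for Srsf11 (0.34), Hnrnpu (0.10), Hnrnpm (0.30), Srsf3 (0.38) and Clk1 (0.093). Without neurons 20 and 25 they turned for Tra2b (0.49), Srsf11 (0.10), Hnrnpk (0.0028), Hnrnpm (0.36), Srsf1 (0.32), Hnrnpa2b1 (0.34), Prpf8 (0.024) and Celf4 (0.14). Without neurons 7, 8 and 9 they turned for Tra2b (0.15), Srsf11 (0.051), Clk1 (0.73) and Rnps1 (-0.10). Library totals gave 0.046 for Hnrnpu, and spike-in totals 0.045 for Hnrnpu, 0.00072 for Hnrnpm and -0.0035 for Rnps1. These 31 values are of genes that the naming rule took in, and signs of other genes were not counted. Beside them, 346 values kept their direction and side of the threshold under the same alternatives. A further 5 passed the threshold in DESeq2 with the same direction. The cause was not tested for any of these.

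Leaving out each neuron gave log2 fold changes from -0.31 to 0.12 for Celf4, -1.83 to 1.08 for Clk1, -0.43 to 0.16 for Hnrnpa2b1, -0.58 to 0.22 for Hnrnpm, -0.26 to 0.22 for Hnrnpu, -0.19 to 0.35 for Rnps1 and -0.59 to 0.060 for Srpk2. They ran from -0.86 to 0.036 for Srsf1, -0.59 to 0.13 for Srsf11, -0.44 to 0.19 for Srsf3, -0.044 to 0.94 for Tardbp and -0.49 to 0.22 for Tra2b. The class medians ran from -0.59 to 0.13 for SR proteins, -0.32 to 0.21 for hnRNPs and -0.91 to -0.43 for core genes, and the median of all 30 from -0.58 to -0.18. The difference in genes detected per library, -1.25, was 0.56 at a minimum of 1 count, -2.56 at 50 counts and -0.29 without neurons 20 and 25, and without those neurons the difference in summed CPM was -609, against -1284 with them. The SE of Hnrnpf, 9.18 on the log2 scale, is a ratio of an estimate and a statistic that are both near 0. A gene at 0 in a shallow library was not detectable at that depth.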

Other observations

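Among the cell type markers, Apoe, an astrocyte lipoprotein gene, had a median of 20.04 CPM in dendrites and 1.03 CPM in soma, with a log2 fold change of 4.16 (edgeR unadjusted p = 0.0127) and 12 of 16 neurons higher in dendrites. Nrgn, the postsynaptic calmodulin-binding protein neurogranin, had medians of 4.60 CPM in dendrites and 0.453 CPM in soma and a log2 fold change of 3.62 (edgeR unadjusted p = 0.0443), again with 12 of 16 neurons higher in dendrites. edgeR called neither at an adjusted p under 0.05, and without the neuron block the fold changes were 1.27 for Apoe and 0.48 for Nrgn. Above 0 in the paired fit were 4 of 5 tested astrocyte markers and 3 of 5 tested pyramidal neuron markers. DESeq2 called Apoe and Nrgn higher in dendrites, as it did U2af1, Hnrnpa1 and the markers Neurod2, Gad1, Dcn and Shank1. It called the marker Snhg11 lower. Over all genes tested it called 5.55% higher and 2.64% lower. Fold changes without the neuron block were 0.40 for Neurod2, 0.48 for Dcn, -1.41 for Gad1, -0.32 for Shank1 and -2.28 for Snhg11. In limma-voom that of Gad1 was -0.60, while those of Neurod2, Dcn and Shank1 were above 0. The markers named here were chosen after their values were seen.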
